A study of Mus musculus with 24 samples.

Results

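The genes described here are 10 markers of brain endothelial cells and of the blood-brain barrier: Cldn5, Cdh5, Pecam1, Ly6c1, Flt1, Tek, Slc2a1, Mfsd2a, Abcb1a and Slco1a4. They were taken by symbol from the 57126 gene identifiers of the count tables, of which 20533 had a count in at least 1 library. All 10 were found, each under a single identifier. The list is one of symbols, with no measured value in its rule, and it was drawn up with earlier results of these data known. The RNA came from 12 mice, cerebellum and hippocampus of each. Their strain was BALB/cNctr-Npc1m1N/J, whose Npc1-/- genotype lacks the cholesterol exporter of the lysosome and models Niemann-Pick disease type C. The 3 groups of 4 mice were Npc1+/+ given vehicle (PBS:PEG400), Npc1-/- given the same vehicle, and Npc1-/- given dipyridamole in it. Injections were intraperitoneal, at 30 mg/kg for dipyridamole, on 5 days of the week from postnatal day 28. Dipyridamole blocks nucleoside transport and cyclic nucleotide phosphodiesterases. At sampling all 4 Npc1+/+ mice, females throughout, were 65 days old, and the Npc1-/- mice were all 63 days old. Sex differed between the groups: the Npc1-/- vehicle group held 3 males and 1 female, and the dipyridamole group 2 of each. Npc1-/- and Npc1+/+ mice were littermates. Genotype cannot be told apart from age, nor from the range of sequencing barcodes, which also differed between genotypes.

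Endothelial cells of the brain form a barrier because tight junctions close the gaps between them and because their membranes carry selective transporters. Claudin-5 (Cldn5) is the main claudin of those tight junctions, VE-cadherin (Cdh5) holds the adherens junctions and PECAM-1 (Pecam1) is an adhesion molecule of all endothelium. Flt1 and Tek are the receptors for vascular endothelial growth factor and for angiopoietins. Glut1 (Slc2a1) carries glucose into the brain, Mfsd2a carries lysophospholipids with docosahexaenoic acid and restrains transcytosis, P-glycoprotein (Abcb1a) pumps drugs back into blood, and Slco1a4 carries organic anions. Barrier properties are induced by Wnt ligands from neural cells and kept by pericytes and astrocyte endfeet.

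In the files' build (GRCm39), Cldn5 (ENSMUSG00000041378.3) lies on chromosome 16 at 18595597 to 18597012, Cdh5 (ENSMUSG00000031871.10) on chromosome 8 at 104828257 to 104871143 and Tek (ENSMUSG00000006386.16) on chromosome 4 at 94627526 to 94763213, all on the plus strand. Slc2a1 (ENSMUSG00000028645.12; chromosome 4, 118965908 to 118995180) and Abcb1a (ENSMUSG00000040584.9; chromosome 5, 8710077 to 8798575) are also on the plus strand. On the minus strand are Pecam1 (ENSMUSG00000020717.20; chromosome 11, 106545043 to 106641454), Ly6c1 (ENSMUSG00000079018.11; chromosome 15, 74915867 to 74920679) and Flt1 (ENSMUSG00000029648.14; chromosome 5, 147498414 to 147662821). Mfsd2a (ENSMUSG00000028655.12; chromosome 4, 122840643 to 122854981) and Slco1a4 (ENSMUSG00000030237.15; chromosome 6, 141751166 to 141801925) complete the minus strand. These are the spans of whole genes, and where the amplicon of each gene lies within it is not given in the sources used here. Counts of one amplicon do not scale with transcript length, so levels were compared between samples of a gene. Across genes, CPM was used to pick which genes of a list to name and was summed over lists of markers. It says nothing of which gene is the more abundant, and such a sum follows the genes of highest CPM in its list.

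Ly6c1, a surface antigen of brain endothelium, had 0 counts in all 24 libraries. A count of 0 allows up to 3 counts, which is 0.259 to 1.64 CPM (counts scaled to a common library total) in a library and 0.0158 CPM over all libraries together. A count of 0 is not read here as absence of the transcript, because Ctnnd1, the catenin that binds VE-cadherin and other cadherins in most cell types, and the endothelial genes Tie1 and Rasip1 were also at 0 throughout. Ly6c1 has a close copy, Ly6c2, which held 1 count in all. The start of both coding sequences is shown because it marks where the pair differ. The first 150 coding bases, from GENCODE transcripts (GRCm38), have the 6 bases that differ in capitals.
Ly6c1: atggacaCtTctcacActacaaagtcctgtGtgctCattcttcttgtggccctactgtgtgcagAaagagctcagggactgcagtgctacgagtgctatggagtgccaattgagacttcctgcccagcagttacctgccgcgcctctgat
Ly6c2: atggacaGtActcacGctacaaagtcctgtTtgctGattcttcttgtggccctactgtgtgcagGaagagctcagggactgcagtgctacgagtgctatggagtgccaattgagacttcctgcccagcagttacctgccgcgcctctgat
Over the whole 393 coding bases the pair differ at 9 positions and share 97.7% of bases. Of all windows of 100 bases in Ly6c1 transcripts, 10.1% also occur in a transcript of another gene, most often Ly6c2. The share is 9.23% for Abcb1a, most often with Abcb1b, and 0.640% for Slco1a4, most often with Slco1a5. It is 0% for the other 7 genes, so Abcb1a is the 1 gene with sizeable counts that shares such windows with a copy. Abcb1b itself held 320 counts over the 24 libraries. Whether shared sequence lowers the counts of Ly6c1 or Abcb1a was not tested.

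Slco1a4 was barely detected, with 0 to 10 counts per library. Its 4 libraries together held 13 counts in Npc1+/+ cerebellum and 19 in Npc1-/- vehicle cerebellum, which is 0.358 and 0.785 CPM. The exact Poisson intervals, covering counting error only, ran from 0.190 to 0.611 and from 0.472 to 1.23. In hippocampus the sums were 16 counts for each of these groups, and with dipyridamole they were 17 in cerebellum and 26 in hippocampus. The cerebellar intervals overlap, which is not a test of the groups. In the 2 alternative fits that kept Slco1a4, its cerebellar genotype difference was 1.64 to 1.68 (log2), and the fit with no filter did not call it. The other was the fit of female mice alone, which holds 1 Npc1-/- vehicle mouse and is given as an effect size only. In the main tests the gene fell below the filter on low counts. The tests therefore cover 8 of the 10 genes.

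The libraries held 1833609 to 11590081 counts, with a median of 7979867. The shallowest cerebellar and hippocampal libraries came from the same mouse, Npc1-/- vehicle replicate 2 (1833609 and 3844971 counts), and both libraries of dipyridamole replicate 4 carry the same barcode label, 124. Summed over 6 marker genes, cerebellar identity genes stood at 3054 to 4314 CPM in cerebellum against 3.14 to 30.2 in hippocampus, and the 6 hippocampal markers at 579.8 to 1736 in hippocampus against 71.1 to 102 in cerebellum. Genes of the choroid plexus, a tissue of the ventricles next to both regions, varied within groups from 67.9 to 2921 CPM in Npc1-/- vehicle cerebellum. In hippocampus they ranged from 83.8 to 3716 CPM in Npc1+/+, from 171 to 8222 in Npc1-/- vehicle and from 114 to 5236 in dipyridamole mice. In whole tissue, fewer endothelial cells and less RNA per cell cannot be told apart. Apart from the limits for Ly6c1 and the summed counts of Slco1a4, which are relative to plain totals, CPM are scaled to library sizes adjusted by the trimmed mean of M values (TMM), a correction for composition.

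Loss of Npc1 in the cerebellum left most of these genes at levels that the test could not separate, and 1 of them rose. Mfsd2a was higher in Npc1-/- vehicle cerebellum, and Cldn5 had a lower mean that did not pass the test. Cldn5 and the remaining 6 overlapped between groups. The call was an adjusted p under 0.05 from edgeR's quasi-likelihood test over all genes, with sex as a covariate. By that rule 1 of the 8 tested genes passed, and 9.95% of all 12921 tested genes did, so the share among these genes is near the background. The median log2 difference of the 8 was 0.09, beside 0.01 over all genes tested.

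Mfsd2a, the lysophospholipid carrier, stood at 19.98, 27.3, 18.6 and 23.998 CPM in the 4 Npc1+/+ cerebella. The 4 Npc1-/- vehicle cerebella stood at 33.5, 29.3, 34.0 and 31.3 CPM. Each knockout library lay above each wild-type library, and the knockout group was the tighter of the pair. Such groups without overlap, with the knockout higher, occurred in 10.6% of all tested genes. The means were 22.5 ± 3.95 and 32.0 ± 2.15 CPM (SD, n = 4). The fitted log2 difference was 0.67 ± 0.19 (SE), a fold of 1.59 with a 95% interval of 1.20 to 2.12, and the adjusted p was 0.0347. Dipyridamole-treated knockouts held 25.5, 30.4, 32.4 and 33.8 CPM, of which 1 lay inside the wild-type range. With all 8 knockout mice set against the wild type, a grouping chosen after seeing the data, the log2 difference was 0.61 ± 0.17 (adjusted p 0.0184). The call is close to its threshold: in 12 of 24 other settings the adjusted p was 0.05 or more, among them the fit of only the groups compared (0.259) and the fit of female mice alone (0.134). The fit of females holds 1 Npc1-/- vehicle mouse, which is assumed to vary like the other groups. The difference stayed positive in all 24, from 0.53 to 0.84 (log2).

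**Figure D1:**
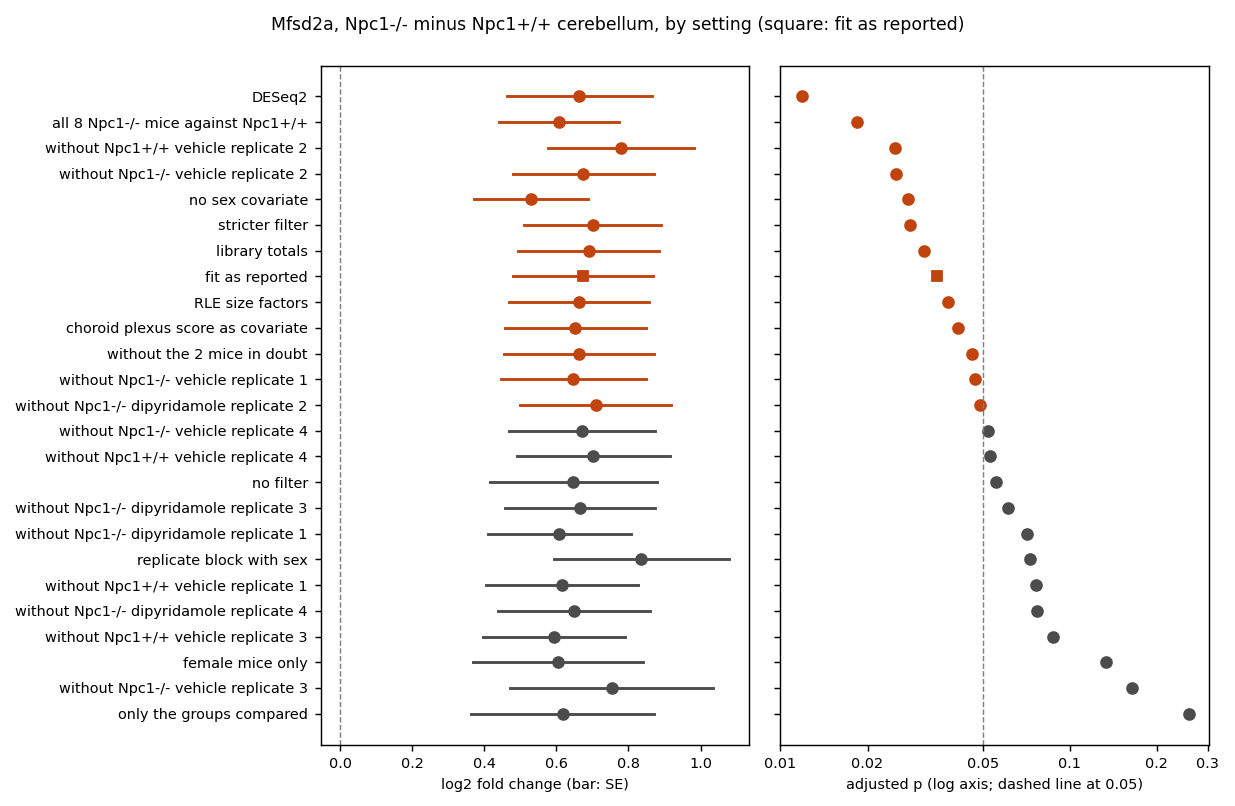
Mfsd2a in Npc1-/- against Npc1+/+ vehicle cerebellum under each way of fitting, ordered by adjusted p; the left axis is the log2 fold change with its SE and the right axis the adjusted p on a log scale. All log2 fold changes lie between 0.53 and 0.84, while the adjusted p runs from 0.0119 (DESeq2) to 0.259 (only the groups compared) and crosses the dashed line at 0.05.

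Markers of other cells moved in the same comparison. Summed over 9 genes of astrocyte endfeet, the level was 1517 to 1792 CPM in Npc1+/+ and 2153 to 2387 CPM in Npc1-/- vehicle cerebellum. That sum mostly follows Gja1 and Kcnj10, with means of 692 and 658 CPM over all 24 libraries. Of the 9 fitted differences 5 were above 0. Summed over 10 microglial genes, of which Itgam and C1qa were at 0, the level was 56.1 to 64.0 against 289.8 to 365 CPM. The 30 other endothelial genes, of which Tie1 and Rasip1 were at 0, summed to 298 to 346 CPM and 315 to 350.2 CPM, ranges that overlap. With the choroid plexus score as a covariate Mfsd2a kept a log2 difference of 0.65 ± 0.20 (adjusted p 0.0409). The part of astrocytes and microglia in the Mfsd2a difference was not tested.

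Claudin-5 had the lowest knockout mean relative to wild type among the tested genes. Cldn5 stood at 6.86, 8.50, 7.06 and 9.09 CPM in Npc1+/+ cerebellum and at 1.91, 2.57, 6.87 and 6.18 CPM in Npc1-/- vehicle cerebellum, on 5 to 85 counts per library. Replicates 1 and 2 of the knockouts were below every wild-type library, on only 16 and 5 counts. Replicate 4 was closer to the wild-type libraries, and replicate 3 reached the lowest wild-type value. The means were 7.88 ± 1.09 and 4.38 ± 2.50 CPM (SD, n = 4). The fitted log2 difference was -0.56 ± 0.40 (SE), with a fold of 0.680 and a 95% interval of 0.382 to 1.21, and it did not pass (adjusted p 0.424). Replicate 3 was the only female of that group, so the fit of female mice alone (-0.19 ± 0.35, adjusted p 0.817) sets that 1 library against wild type and takes its spread from the other groups. Without the sex term the difference was -0.75 ± 0.33 (adjusted p 0.123). Dipyridamole-treated knockouts held 3.81, 6.08, 3.18 and 5.59 CPM, all below the lowest wild-type value.

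The other junction and adhesion genes overlapped between genotypes in the cerebellum. Cdh5 ranged from 7.90 to 11.3 CPM in Npc1+/+ and from 8.62 to 13.4 CPM in Npc1-/- vehicle mice (log2 0.22 ± 0.25, adjusted p 0.642). Pecam1 stood at 22.1, 21.5, 22.2 and 18.9 CPM in wild type and at 35.4, 18.5, 24.6 and 25.4 CPM in knockout cerebellum. Of the knockout libraries of Pecam1, 3 were above the wild-type range and replicate 2 was below it. Its log2 difference was 0.62 ± 0.35 (adjusted p 0.289), with a fold interval of 0.930 to 2.54.

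Both growth factor receptors were also without a call. Flt1, which binds and traps vascular endothelial growth factor, ranged from 39.1 to 56.2 CPM in wild type and from 37.8 to 64.3 CPM in knockout cerebellum (log2 -0.03 ± 0.27, adjusted p 0.961). Tek, the angiopoietin receptor Tie2, ranged from 4.52 to 7.60 and from 3.46 to 5.74 CPM (log2 -0.20 ± 0.31, adjusted p 0.748). The fold intervals, 0.662 to 1.45 for Flt1 and 0.554 to 1.37 for Tek, leave room for changes in either direction.

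Among the tested genes, Slc2a1 had the widest spread over mice for its counts. The Npc1+/+ cerebella held 91.4, 114, 126 and 142 CPM and the Npc1-/- vehicle cerebella 117, 255, 114 and 144 CPM of Slc2a1. A single knockout library, replicate 2 with the smallest total, stood far above the rest, and the other 3 overlapped wild type. The means were 118 ± 21.3 and 158 ± 66.5 CPM (SD, n = 4), yet the fit with sex gave a log2 difference of -0.06 ± 0.25 (adjusted p 0.914). Without the sex term its direction turned, at 0.41 ± 0.24 (adjusted p 0.254), and without replicate 2 it was -0.22 ± 0.19 (adjusted p 0.485). Abcb1a, the drug efflux pump, held 9.20 to 12.6 CPM in wild type and 10.8 to 13.0 CPM in knockouts (log2 0.20 ± 0.22, adjusted p 0.621).

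**Figure D2:**
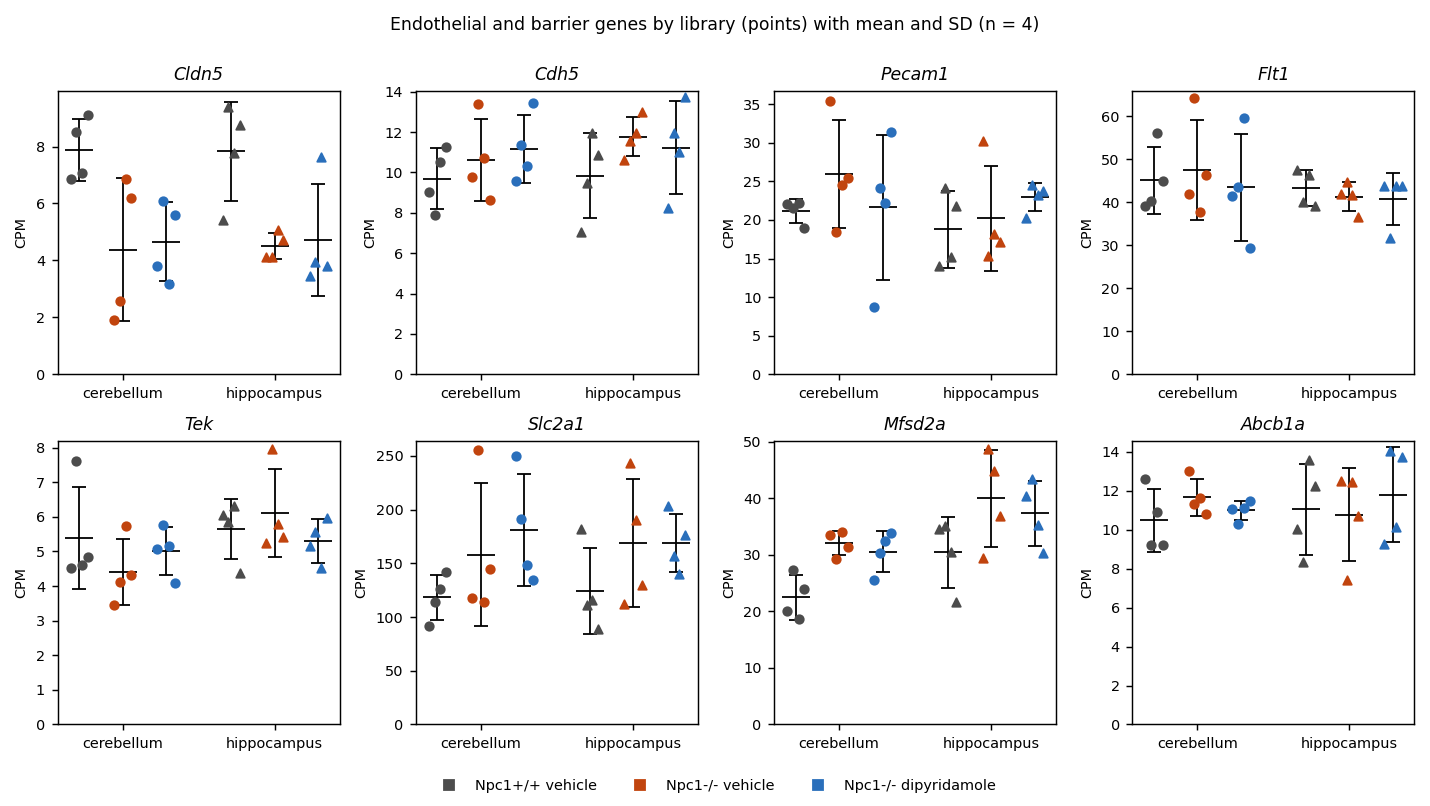
CPM of the 8 tested genes in each library, with cerebellum (circles) on the left and hippocampus (triangles) on the right of each panel, coloured by group, and the mean and SD of 4 mice in black; each axis starts at 0. Mfsd2a in Npc1+/+ cerebellum (18.6 to 27.3 CPM) lies below Npc1-/- vehicle cerebellum (29.3 to 34.0 CPM), Cldn5 in Npc1+/+ hippocampus (5.42 to 9.38 CPM) lies above Npc1-/- vehicle hippocampus (4.12 to 5.05 CPM), and the other genes overlap between groups.

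Genes with related roles had few calls in the cerebellum, where 9.95% of all 12921 tested genes passed. The junction list stood above that share and the endothelial and transporter lists below it, on few genes each. Of 26 tested genes of endothelial cells, 1 rose, the transcription factor Erg, from 5.16 ± 0.485 to 9.60 ± 1.33 CPM (log2 1.12 ± 0.26, adjusted p 0.0101). The median of the 26 was 0.03 (log2). Of 10 tight and adherens junction genes, 2 rose: Jam2 (0.61 ± 0.15, adjusted p 0.0161) and the cytoplasmic junction protein Cgn (0.89 ± 0.23, adjusted p 0.0178). The median of these 10 was -0.01. Of 18 other barrier transporters and receptors, 1 rose, the large neutral amino acid transporter Slc7a5, from 119 ± 10.5 to 232 ± 37.7 CPM (1.02 ± 0.17, adjusted p 0.000580), and the median was 0.22.

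The Wnt and Norrin list moved both ways. Of its 18 tested genes, 2 rose and 1 fell, a share above the 9.95% of all tested genes that passed, again on few genes. Apcdd1, a Wnt target and inhibitor, rose from 45.5 ± 10.9 to 103 ± 9.76 CPM (log2 1.07 ± 0.20, adjusted p 0.00206), and Reck, the partner of the Wnt7 receptor complex, rose by 0.72 ± 0.20 (adjusted p 0.0313). Ndp, which encodes the ligand Norrin, fell by 1.26 on the log2 scale, from 19.2 ± 0.902 to 6.69 ± 2.48 CPM (adjusted p 0.0108). The median of the 18 was 0.02. None of 11 genes of the VEGF and angiopoietin list passed (median 0.21), and 1 of them had an unadjusted p under 0.05. The 2 genes named by the rule on CPM, Vegfb and Nrp2, had log2 differences of -0.22 ± 0.20 and 0.48 ± 0.17. None of 5 endothelial activation genes passed either (median 0.57), and 2 had an unadjusted p under 0.05. Both counts are to be read beside all 12921 tested genes, of which 3088 had an unadjusted p under 0.05 by edgeR. Vcam1 differed by 0.20 ± 0.21 and Plvap, which is found in leaky vessels, by 0.48 ± 0.18 (adjusted p 0.0987).

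Calls in the cells that surround the endothelium are to be read beside the 9.95% of all tested genes that passed, and most were microglial. Of 14 mural genes, 1 rose, the pericyte peptidase Anpep (1.80 ± 0.45, adjusted p 0.0151), and the median was 0.30. Of 9 basement membrane genes, 1 fell, Lamb1 (-0.84 ± 0.25, adjusted p 0.039), and the median was 0.01. Of 9 endfoot genes, 2 rose, the gap junction gene Gja1 (0.94 ± 0.15, adjusted p 0.000551) and the water channel Aqp4 (1.36 ± 0.30, adjusted p 0.00666). The endfoot median was 0.51 (log2), and 5 of the 9 differences were above 0. Of 8 meningeal genes 1 rose, Aebp1 (0.91 ± 0.23), with a median of 0.03. Of 12 choroid plexus genes none passed (median -0.03). An unadjusted p under 0.05 was found for 1 of the 12, beside 3088 of all 12921 tested genes. Of 8 microglial genes 7 rose, with a median of 2.03, led by Cd68 at 3.89 ± 0.26. Of 2 tested blood genes, Alas2 fell by 1.70 on the log2 scale. Of 6 cerebellar identity genes 1 fell, Gabra6 (-0.89 ± 0.22), and of 3 tested hippocampal markers none passed, none of them at an unadjusted p under 0.05 either. Of 2 tested relatives of the described genes, 1 rose, Ly6a, from 5.59 ± 1.35 to 11.0 ± 0.867 CPM (0.82 ± 0.25, adjusted p 0.0477). Ly6a belongs to the same gene family as Ly6c1, and which cells its counts came from in this strain was not tested.

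**Figure D3:**
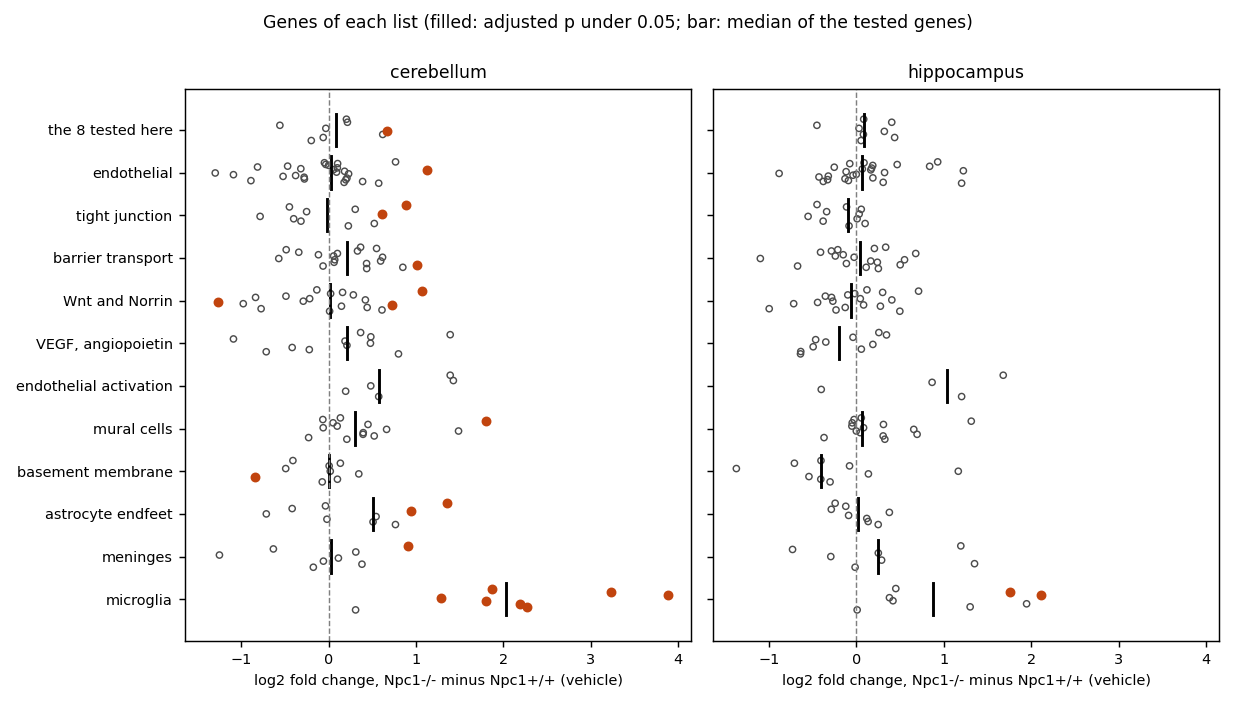
Log2 fold change of Npc1-/- against Npc1+/+ vehicle mice (horizontal axis) for every tested gene of each list, in cerebellum (left) and hippocampus (right); filled points passed an adjusted p of 0.05 and the vertical bars are list medians. In cerebellum the 8 tested genes have a median of 0.09 with 1 filled point, and the microglial list has 7 of 8 filled; in hippocampus filled points occur only among the microglial genes.

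In the hippocampus none of the 8 tested genes passed the genotype comparison by edgeR. In all, 1.62% of 12740 tested genes passed there. None of the 8 had an unadjusted p under 0.05, beside 12.3% of all genes, and DESeq2 called none of them, beside 3.29% of all genes. Their median log2 difference was 0.08, beside -0.01 over all genes tested.

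Cldn5 was nonetheless separated between the groups in hippocampal CPM. It stood at 5.42, 9.38, 7.79 and 8.76 CPM in Npc1+/+ and at 4.12, 4.12, 5.05 and 4.71 CPM in Npc1-/- vehicle hippocampus. Each knockout library lay below each wild-type library, as did those of 5.38% of all tested genes. The means were 7.84 ± 1.74 and 4.50 ± 0.461 CPM (SD, n = 4), and the fitted log2 difference was -0.45 ± 0.35, with a fold of 0.731 and an interval of 0.436 to 1.22 (adjusted p 0.653). Without the sex term it was -0.79 ± 0.28 (adjusted p 0.144). The dipyridamole group held 3.46, 3.94, 7.64 and 3.80 CPM, with replicate 3 inside the wild-type range. In neither tissue did any setting bring the adjusted p of Cldn5 under 0.05; the lowest was 0.123 in cerebellum and 0.144 in hippocampus.

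Mfsd2a in hippocampus stood at 34.6, 35.1, 30.5 and 21.6 CPM in wild type and at 29.5, 48.6, 44.9 and 36.8 CPM in Npc1-/- vehicle mice. Of the knockout libraries, 3 were above the wild-type range and replicate 1 was inside it. The log2 difference was 0.32 ± 0.24 (adjusted p 0.648), and it was -0.02 ± 0.34 without knockout replicate 3, the only female of that group. Slc2a1 stood at 182, 112, 115 and 88.8 CPM in wild type and at 112, 243, 190.0 and 129 CPM in knockouts (log2 0.44 ± 0.31, adjusted p 0.624). Replicate 2, the mouse whose cerebellum was high, was also the highest in hippocampus. Without it the difference was 0.30 ± 0.27 (adjusted p 0.66).

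The remaining genes overlapped in the hippocampus. Cdh5 ranged from 7.05 to 12.0 CPM in wild type and from 10.6 to 13.0 CPM in knockouts (log2 0.40 ± 0.27, adjusted p 0.595). Pecam1 held 14.0, 24.2, 15.2 and 21.7 CPM against 30.3, 15.4, 18.1 and 17.1 CPM, where replicate 1 was the highest of the knockouts, as it was in cerebellum. Flt1 (39.3 to 47.6 against 36.7 to 44.8 CPM), Tek (4.38 to 6.31 against 5.23 to 7.97 CPM) and Abcb1a (8.32 to 13.6 against 7.42 to 12.5 CPM) had log2 differences of 0.03 ± 0.19, 0.05 ± 0.29 and 0.08 ± 0.29.

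Of the lists in hippocampus, only the microglial one held genes that passed, with 2 of 8: Cd68 (2.11 ± 0.23) and C1qb (1.76 ± 0.27), and a median of 0.88. None of 25 endothelial genes (median 0.07), 10 junction genes (-0.10), 18 transporters (0.04), 18 Wnt and Norrin genes (-0.06), 14 mural genes (0.07) or 9 basement membrane genes (-0.41) passed by edgeR. At an unadjusted p under 0.05 there were 3, 0, 3, 2, 1 and 1, beside 12.3% of all tested genes. Slc7a5 differed by 0.50 ± 0.20 (adjusted p 0.314) and Plvap by 0.86 ± 0.21 (adjusted p 0.0559), the latter from 22.2 ± 2.33 to 37.8 ± 3.72 CPM. None of the VEGF and angiopoietin (median -0.20), activation (1.03, 4 tested), endfoot (0.01), meningeal (0.25), choroid plexus (-3.05), blood (1 tested), regional identity or related-gene lists had a call. The choroid plexus median comes from the fit with sex and has wide errors, such as -3.10 ± 2.58 (SE) for Ttr. Summed choroid plexus CPM went the other way, with group medians of 1666 in Npc1+/+ and 2754 in Npc1-/- vehicle hippocampus. At an unadjusted p under 0.05 there were 3 of the 4 activation genes, 3 of 7 meningeal genes, 1 of 10 VEGF and angiopoietin genes, 1 of 8 endfoot genes and none in the choroid plexus, blood, regional identity and related-gene lists.

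Whether the genotype difference itself differed between tissues was tested over 24 libraries with the mouse as a block. None of the 8 passed by edgeR, where 1.15% of 13436 genes did, and none had an unadjusted p under 0.05, where 9.15% did. DESeq2 also called none of the 8, beside 1.7% of all genes. Mfsd2a, called in cerebellum and not in hippocampus, had a difference between tissues of -0.36 ± 0.32 (log2, adjusted p 0.875). Slc2a1 had 0.53 ± 0.33 and Pecam1 -0.52 ± 0.37, with adjusted p of 0.745 and 0.80. Among the lists Aqp4 passed, at -1.62 ± 0.36 (adjusted p 0.0351), as did 3 microglial genes, Cd68 (-1.80 ± 0.34), Cx3cr1 (-1.37 ± 0.28) and Aif1 (-1.42 ± 0.31). These 4 had a larger genotype difference in cerebellum than in hippocampus.

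With dipyridamole, none of the 8 genes passed in either tissue by edgeR, against the same Npc1-/- vehicle libraries used above. No gene of the whole table passed, so the background is 0.0% in cerebellum and 0.0% in hippocampus. DESeq2 also called none, and at an unadjusted p under 0.05 there were 300 genes of 12921 (2.32%) in cerebellum and 93 of 12740 (0.73%) in hippocampus, none of them among the 8. In cerebellum the largest log2 differences were those of Pecam1, -0.43 ± 0.29, and Slc2a1, 0.34 ± 0.20. The Pecam1 value rests on replicate 1, which held 8.76 CPM while the others held 24.2, 22.2 and 31.4 CPM. Slc2a1 held 249.6, 192, 148 and 134 CPM in the same 4 libraries, with replicate 1 the highest.

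In hippocampus the largest differences were Tek at -0.18 ± 0.24 and Pecam1 at 0.18 ± 0.25 (log2). Slc2a1 with dipyridamole stood at 203, 157, 140.4 and 176 CPM, inside the vehicle range, and its difference was 0.00 ± 0.26. Over the 8 genes the 95% intervals of the fold reached from 0.489 (Pecam1) to 1.71 (Slc2a1) in cerebellum and from 0.619 (Cldn5) to 1.64 (Pecam1) in hippocampus, so changes within these limits cannot be told from none. For Mfsd2a the intervals were 0.722 to 1.15 and 0.701 to 1.27, and for Abcb1a 0.710 to 1.21 and 0.742 to 1.501. Slc29a1, the nucleoside transporter that dipyridamole blocks, was singled out after its values were seen, and differed by 0.12 ± 0.22 in cerebellum and 0.10 ± 0.29 in hippocampus. No gene of any list passed in either tissue.

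**Figure D4:**
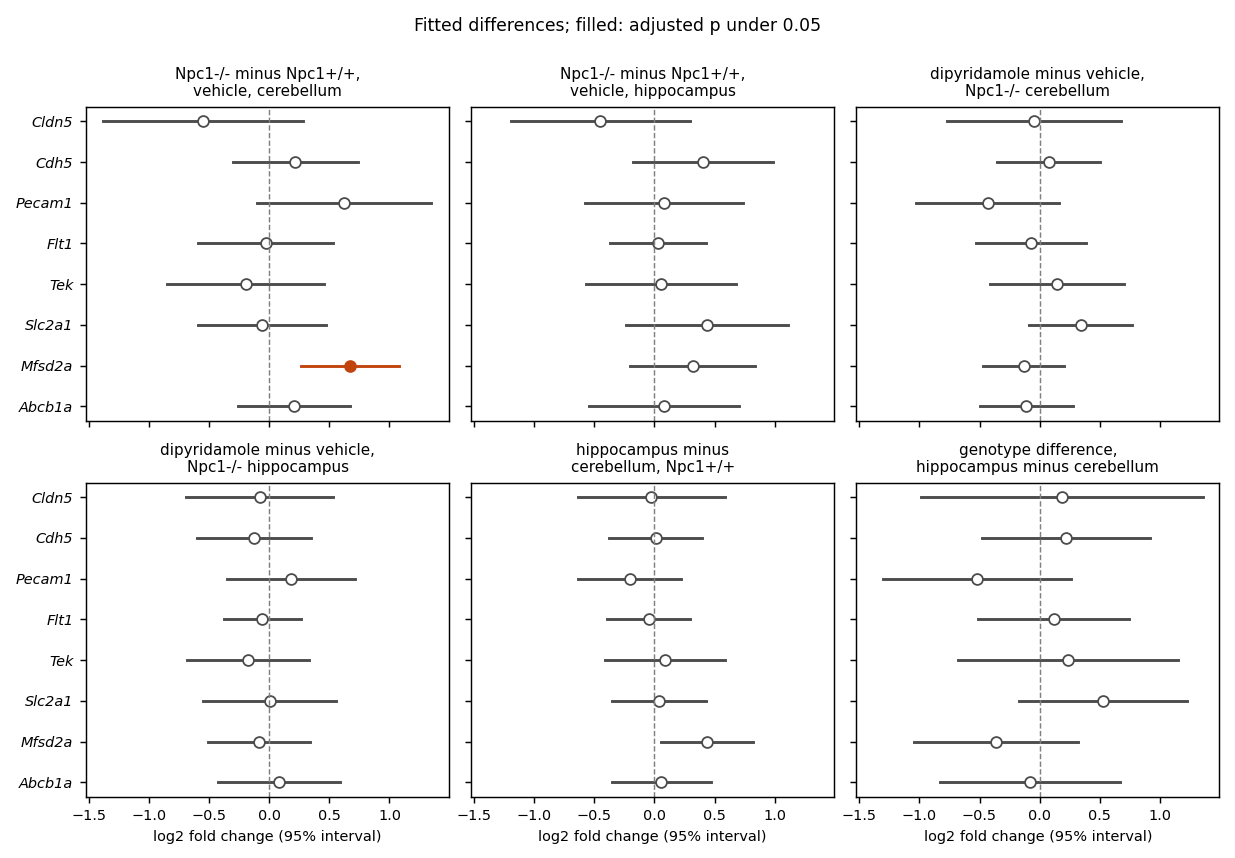
Fitted log2 fold changes of the 8 tested genes (points) with 95% intervals (lines) in each of 6 comparisons, named above each panel. Mfsd2a in Npc1-/- against Npc1+/+ cerebellum (0.67) is the 1 filled point, and the intervals of both dipyridamole comparisons all include 0.

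Between the tissues of Npc1+/+ mice none of the 8 genes passed by edgeR, although 43.1% of 13436 genes did. DESeq2 called none of the 8 and 42.7% of all genes, and at an unadjusted p under 0.05 there was 1 of the 8, Mfsd2a, and 49.9% of all genes. Mfsd2a came nearest, at 22.5 ± 3.95 CPM in cerebellum and 30.4 ± 6.24 CPM in hippocampus, a log2 difference of 0.43 ± 0.18 with an adjusted p of 0.0618. It was higher in the hippocampus of 3 of the 4 mice, and in mouse 4 the values were 23.998 and 21.6 CPM. Without mouse 4 the adjusted p was 0.00923. The other 7 differed by -0.21 to 0.09 (log2), and the widest fold interval was that of Cldn5, 0.642 to 1.501. For Flt1 the interval was 0.761 to 1.23 and for Cdh5 0.768 to 1.32.

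The counts of the other vascular and barrier lists are to be read beside the 43.1% of all genes that differed between the tissues: apart from the junction list, they were below or near that share. Of 27 endothelial genes 4 were higher in hippocampus, among them Palmd (2.03 ± 0.25), Cd34 (1.42 ± 0.27) and Egfl7 (0.69 ± 0.16), and the median was 0.14. Of 10 junction genes 1 was higher and 6 were lower, led by Marveld2 (-2.42 ± 0.24), Jam2 (-0.66 ± 0.12) and Cgn (-0.97 ± 0.19), with a median of -0.56. Of 18 transporters 6 were higher, such as Slco1c1 (0.94 ± 0.20) and Slco2b1 (1.06 ± 0.23), and 1 was lower, Slc29a1 (median 0.18). Of 18 Wnt and Norrin genes 4 were higher and 4 lower, with Wnt7b at 2.13 ± 0.16, Tnfrsf19 at 1.55 ± 0.12 and Ndp at -1.36 ± 0.21. Of 11 VEGF and angiopoietin genes 3 were higher, Nrp1 (2.76 ± 0.20), Nrp2 (1.69 ± 0.18) and Vegfd (2.77 ± 0.35), and 2 were lower, the ligands Vegfa (-0.62 ± 0.13) and Angpt1 (-0.88 ± 0.19). Ramp2 was the remaining endothelial gene that was higher (0.62 ± 0.19), Tjp1 the junction gene that was higher (0.47 ± 0.13), and Wnt7a, the other Wnt7 ligand, was lower (-1.06 ± 0.18). These last genes and Slc29a1 were named after their values were seen.

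Genes of the surrounding cells are given beside the same background. Of 14 mural genes 2 were higher in hippocampus, Cspg4 (0.86 ± 0.19) and Acta2 (0.74 ± 0.23), and 1 was lower, Notch3 (-0.58 ± 0.18). Of 9 basement membrane genes the collagen genes Col4a1 (0.98 ± 0.16) and Col4a2 (1.00 ± 0.26) were higher and Nid1 (-1.42 ± 0.23) was lower. Of 9 endfoot genes 1 was higher and 3 were lower, among the latter Aqp4 (-0.88 ± 0.20). Of 8 meningeal genes 1 was higher and 6 were lower, led by Col1a1 (-1.09 ± 0.19). Of 5 activation genes 1 was higher (Vcam1, 0.92 ± 0.17), of 8 microglial genes 7 were higher, of 3 blood genes 1 was lower, and of 12 choroid plexus genes none passed. Of 3 tested relatives of the described genes 2 were higher, Abcb1b (2.17 ± 0.55) and Cldn3 (1.75 ± 0.58), whereas Abcb1a differed by 0.06 ± 0.20. The 6 cerebellar identity genes were all lower and the 6 hippocampal ones all higher.

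Across the 6 groups the order of the means was short for most genes. Mfsd2a ran from 22.5 CPM in Npc1+/+ cerebellum through 30.4 in Npc1+/+ hippocampus, 30.5 and 32.0 in treated and untreated knockout cerebellum to 37.3 ± 5.77 and 40.0 ± 8.55 in treated and untreated knockout hippocampus. Only the lowest step of that order is wider than the SDs of both its neighbours. Cldn5 had both wild-type groups at 7.84 and 7.88 CPM and all 4 knockout groups between 4.38 and 4.71 CPM. The highest group mean was 1.78 times the lowest for Mfsd2a, 1.80 times for Cldn5, 1.53 times for Slc2a1, 1.38 times for Pecam1, 1.39 times for Tek, 1.22 times for Cdh5, 1.17 times for Flt1 and 1.13 times for Abcb1a.

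The genes did not rise and fall together from library to library. With each gene centred on its tissue and group mean in log2 CPM, the 28 pairs of the 8 genes had a median Pearson r of -0.07 over 24 libraries, and 12 pairs were above 0. These are descriptions of libraries that share depth and dissection, with no test. Slc2a1 and Pecam1 had the lowest r, -0.72 (Spearman's rho -0.70), and Flt1 and Slc2a1 the highest, 0.52. The spread of Slc2a1 within a group, a median coefficient of variation of 30.4% over the 6 groups, was far above the 3.16% that its counts alone give. For Pecam1 the values were 26.7% and 8.30%, while for Tek (18.0% and 15.3%) the spread was close to that of its counts alone.

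**Figure D5:**
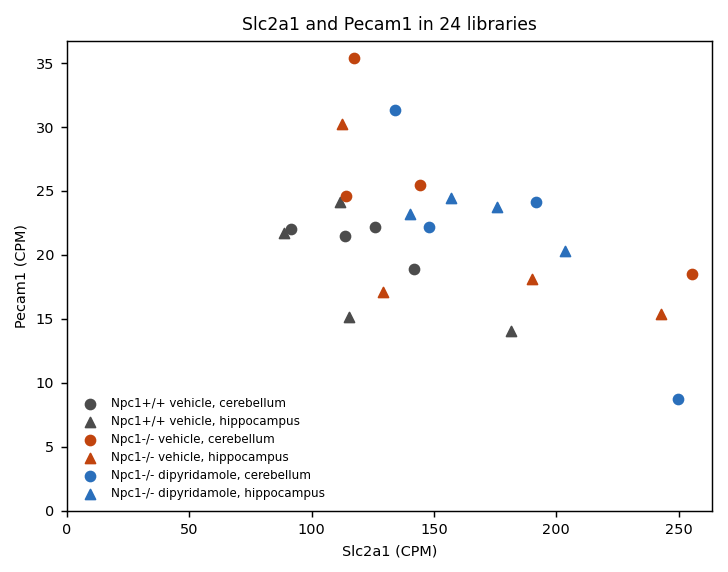
CPM of Slc2a1 (horizontal) and Pecam1 (vertical) in the 24 libraries, coloured by group with circles for cerebellum and triangles for hippocampus; both axes start at 0. The 3 libraries highest in Slc2a1 (243 to 255 CPM) hold 8.76 to 18.5 CPM of Pecam1, and the 3 highest in Pecam1 (30.3 to 35.4 CPM) hold 112 to 134 CPM of Slc2a1.

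The genes whose libraries followed the mean of the 8 most closely were outside every list. Among 10297 genes with at least 5 CPM, the highest Pearson r over 24 libraries was that of Ndufa2 (0.76), followed by Ndufb6 (0.75), Dnajb11 (0.74), Zfyve9 (0.71) and Klhl6 (0.70). Ndfip1, Coq10a, Ina, Mdh1 and Tmf1 came next, at 0.66 to 0.69. Ndufa2 and Ndufb6 are subunits of mitochondrial complex I and Mdh1 is a malate dehydrogenase. None of the 30 other endothelial genes was among these 10.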

How the data were processed

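Cerebellum and hippocampus of 12 mice gave 24 libraries on the Ion AmpliSeq mouse transcriptome panel, per the labels' protocols. The authors deposited raw, unnormalized counts per gene. The submitters' processing notes name FastQC 0.11.9, Trimmomatic 0.39, STAR 2.7.9a, featureCounts 2.0.3 and the build GRCm39; GENCODE M34 and a counting command with no strand or multimapping option are recorded in the file headers. Reads of overlapping genes thus cannot be told apart. The genes overlapping Cdh5, Slc2a1 and Abcb1a had 0 counts, which cannot show whether reads were lost where genes overlap. No molecular identifier marks amplified copies in these tables, so limits from a count of 0 cover counting error only.

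Symbols matched 51884 of 57126 identifiers, and those without one held 0.210% of counts. Chi-square per degree of freedom between replicates was 6.99 to 46.2, above sampling noise, so no library was treated as a copy of another. The main test, run per tissue on all 12 libraries, was edgeR 4.0.16 in R 4.3.3 (TMM, filterByExpr, robust quasi-likelihood, sex as covariate, Benjamini-Hochberg over all genes tested, threshold 0.05). Sex was estimated from Npc1-/- mice, so a fitted fold can differ from a ratio of means. Tissue differences used all 24 libraries, blocked by the mouse number in the labels and with sex allowed to act differently in each tissue. The pairing comes from those labels. Between both libraries of a mouse, deviations from the group mean had correlations of -0.52 to 0.59, with 8 of 12 mice above 0.1 and 3 of 12 closest to their own. Fits were tested on simulated data.

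The described genes, 16 lists and the rule for named genes (up to 3 per list and comparison that passed, by smallest p, or up to 2 of the highest CPM as values, and the 10 genes most like the mean) were chosen with earlier results of these data known. Some results that this rule named are not reported here. CPM came from edgeR's cpm function with TMM sizes. Likeness used log2 CPM with a pseudocount of 0.5. The alternatives tried were DESeq2 1.42.0, RLE factors or plain totals for scaling, no filter or one of 50 counts in 4 libraries, no sex term, a replicate block, only the groups compared, female mice, and each library left out. Chosen after seeing the data were 3 more: all 8 Npc1-/- mice pooled, a choroid plexus covariate, and the fit without the vehicle mouse that is replicate 2 and the dipyridamole mouse that is replicate 4 (fewest counts in both tissues, and 1 ion code on both libraries).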

Additional observations from a re-analysis of the deposited data

Results flagged for a closer look

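For each of the 9 genes with counts and each group of 4, the library farthest out was compared with the other 3, which made 54 checks, of which chance alone marks about 1 in 20. There were 3 such libraries. Cldn5 in dipyridamole hippocampus had replicate 3 at 7.64 CPM, above the others at 3.46 to 3.94 CPM. Flt1 in dipyridamole hippocampus had replicate 2 at 31.8 CPM, below the others at 43.7 to 43.9 CPM. Tek in Npc1+/+ cerebellum had replicate 2 at 7.60 CPM, above the others at 4.52 to 4.85 CPM.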

How the results depend on the processing

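The cerebellar genotype comparison called 1 of the 8 tested genes, Mfsd2a, and called 0 with no filter, with the replicate block, with only the groups compared and with female mice only; over the fits that leave out 1 library it called 0 to 1. The adjusted p of Mfsd2a was 0.0554 with no filter and 0.0728 with the replicate block (log2 0.84). It was 0.0762, 0.0872 and 0.0532 without Npc1+/+ replicates 1, 3 and 4, 0.164 and 0.0523 without Npc1-/- vehicle replicates 3 and 4, and 0.0713, 0.061 and 0.0768 without dipyridamole replicates 1, 3 and 4. Between tissues of Npc1+/+ mice, 0 genes were called. Without the mouse as a block, which ignores that both tissues came from the same mice, 1 was called, Mfsd2a (adjusted p 0.0484). Leaving out 1 mouse gave 0 to 1. The other comparisons called 0 of the 8 in every fit run, and the replicate block changed no other call among the 8. Of 1042 values that passed neither in the reported fit nor in the alternative, 91 changed sign. Same-numbered mice of different groups correlated above 0.1 in 4 of 12 cases in cerebellum and 5 of 12 in hippocampus, so the numbers were not taken as pairs. Genes higher and lower in the genotype comparison, 764 and 522 in cerebellum, were 355 and 258 with the block, 272 and 149 with only the groups compared, 312 and 162 without Npc1-/- vehicle replicate 3, and 1288 and 961 without the sex term. In hippocampus, 130 and 76 became 32 and 23, 29 and 18, 19 and 12, and 289 and 201 under the same settings, 36 and 15 with female mice, and 257 and 162 with DESeq2. For the genotype by tissue test, 82 and 73 became 18 and 9 without Npc1-/- vehicle replicate 3 and 181 and 205 without the tissue by sex term. Dipyridamole in cerebellum had 3 and 10 genes with no filter. The causes were not tested. Low counts limit Cldn5, Tek and Slco1a4 most.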
